A study of Mus musculus with 16 samples.

Results

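T cells build their antigen receptors by cutting and rejoining DNA, and the sequencing depth of 2 stretches of the mouse genome is described here in T cells and B cells. The alpha stretch is chr14:52000001-54000000 and the beta stretch is chr6:40700001-41700000, both in genome build mm8. They hold 600 windows of 5 kb, 400 in the alpha stretch and 200 in the beta stretch, of 492493 such windows on chromosomes 1 to 19. The stretches were chosen by their measured depth in T cells in earlier results of these same libraries. Depth in T cells is therefore given as a description, with no test.

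The libraries come from chromatin immunoprecipitation followed by sequencing (ChIP-seq) of mouse spleen cells, in a study of Myc, a transcription factor. B cells were untreated (B0) or spent 4 h in 25 µg/ml lipopolysaccharide (LPS, a component of bacterial membranes that activates them), alone (B4) or together with 10058-F4, a small molecule that blocks the dimer of Myc and Max. T cells were activated for 4 h (T4) or 14 h (T14) by the plant lectin concanavalin A (ConA) at 7.5 µg/ml. Libraries named Myc used an antibody to EGFP, those named Pol2 an antibody to RNA polymerase II, and controls a non-specific IgG. The dose of 10058-F4, the mouse strain, the genotype and the age are not given in the labels. Untreated T cells were not analysed here.

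There were 4 T cell libraries, 1 titled Myc and 1 titled IgG at each time, and 12 B cell libraries, of which 6 were IgG, 4 Myc and 2 Pol2. For the T14 libraries the title names one antibody and the file name the other, so both are called by title here. The titles of B4 IgG replicate 2 and B4 Pol2 carry the mark wt, which the labels do not explain. Libraries held 1278471 to 7433203 reads on chromosomes 1 to 19. Reads were 25 bases long in the T cell libraries, 24 to 30 bases in the first B4 Myc and B4 IgG libraries and 45 bases in all other B cell libraries. Those first B4 libraries are called the short-read B4 libraries below and serve as the B cell side of each ratio, because read length decides which repeated sequences can be mapped. Nothing in the labels says which libraries came from separate animals, and no expression was measured in these files, so the labelled cell types were not checked against marker genes.

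In developing T cells, the RAG recombinase joins 1 variable (V), sometimes 1 diversity (D), and 1 joining (J) segment of a receptor locus into the exon that encodes the antigen-binding part of the receptor. The DNA between the joined segments is usually cut out as a circle and is lost as the cells divide, so mature T cells carry shortened receptor loci while other cells, B cells included, keep them whole. B cells rearrange the immunoglobulin loci with the same enzyme. The alpha locus can rearrange repeatedly on both chromosomes, and the delta locus lies inside it and is removed when V and J segments of the alpha locus are joined. Different cells use different segments, so the length of DNA removed varies from cell to cell.

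No annotation of mm8 was used here, so windows were not assigned to genes and the names of the stretches are those given with the coordinates. The RefSeq gene order of build GRCm38 gives the layout of the loci. In that order the alpha locus begins with Trav segments interspersed with olfactory receptor genes (Olfr), and lists 130 Trav genes, 6 Trdv genes, 60 Traj genes and 1 constant gene, Trac. The delta segments Trdd1 and Trdd2 and the constant gene Trdc lie between the Trav and the Traj genes. Trac is followed by Dad1, a subunit of the enzyme that attaches sugars to new proteins, and then by Abhd4, a lipid hydrolase. The beta locus lists 35 Trbv genes, 14 Trbj genes and 2 constant genes, Trbc1 and Trbc2. Trypsinogen genes, which encode digestive enzymes of the pancreas, lie between the main Trbv cluster and Trbd1, the first diversity segment. Trbv31 lies beyond Trbc2 and is followed by Ephb6, a receptor-like protein of the ephrin receptor family. No sequence is printed, since a genome of build mm8 was not used here.

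Relative depth is the mean read count per 5 kb window of a stretch divided by the mean over the 3 Mb on each side of it, so that 1 means the depth of the surroundings. Intervals are exact 95% intervals (Clopper-Pearson) and cover counting error only. These are bulk libraries, so a smaller share of cells of a type and less DNA recovered per cell cannot be told apart.

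Over the whole alpha stretch, IgG depth was lower in T cells than the median of B cells, but the ranges overlapped. The library titled T4 IgG had a relative depth of 0.840 (0.782 to 0.902) and that titled T14 IgG 0.752 (0.713 to 0.794). The 6 B cell IgG libraries lay between 0.816 and 1.036. The libraries titled T4 Myc and T14 Myc had 0.867 and 0.674, against 0.845 to 0.946 in the 4 B cell Myc libraries. Pol2 depth was 0.920 in B4 cells and 1.028 in B4 cells given 10058-F4. The mean of the 4 T cell libraries over the mean of the short-read B4 libraries was 0.873 (SD 0.0976 over the T cell libraries, n = 4).

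Over the whole beta stretch, T and B cells were not separated against both flanks. T4 IgG had a relative depth of 0.829 (0.762 to 0.901) and T14 IgG 0.785 (0.734 to 0.839), inside the B cell IgG range of 0.663 to 0.926. The libraries titled T4 Myc and T14 Myc had 0.811 and 0.772, inside the B cell Myc range of 0.681 to 0.906. Pol2 depth was 0.491 in B4 cells and 0.341 with 10058-F4, the lowest of the 16 libraries against both flanks. These values moved with the flank, to 0.883 and 0.837 against the right flank alone, above the library titled T14 Myc at 0.771. Against that flank T4 IgG and T14 IgG, at 0.930 and 0.936, lay below the B cell IgG libraries, of which the lowest was 1.02. The T over B ratio of the whole stretch was 0.910 (SD 0.0291, n = 4), and 1.13 when the 45-base B cell libraries formed the B cell side. The direction of this ratio therefore depended on the B cell libraries used.

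The fall in T cell depth was described by 1 part of each stretch, a number set by the method and not a result. The part was located by scanning all runs of at least 20 windows for the one where a single change of the T over B ratio fitted the counts best. In the alpha stretch this interval was chr14:52655001-53130000, which is 475 kb or 95 windows. In the beta stretch it was chr6:41115001-41465000, which is 350 kb or 70 windows. Since the scan picked the intervals from the T over B ratio, their values below are descriptive.

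**Figure D1:**
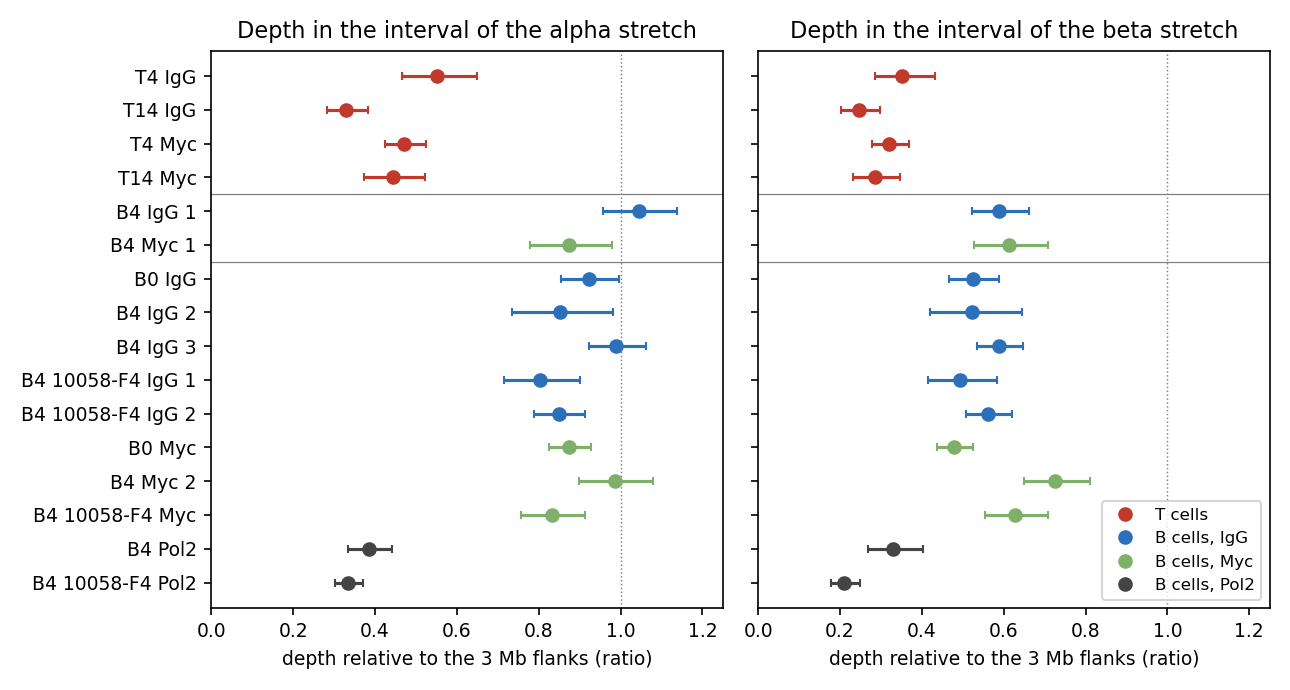
Relative depth (x axis, ratio to the mean of the 3 Mb flanks) in the interval of the alpha stretch (left) and of the beta stretch (right), 1 point per library with its exact 95% counting interval; lines separate T cells, short-read B4 libraries and 45-base B cell libraries. T cell libraries sit at 0.330 to 0.552 and at 0.247 to 0.353, below all B cell IgG and Myc libraries, and the 2 Pol2 libraries of B cells lie inside or below the T cell range.

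In the alpha interval, T cell IgG libraries had about 0.3 to 0.6 of the depth of the surroundings. T4 IgG had 155 reads and a relative depth of 0.552 (0.467 to 0.649), which is 0.919 RPM (reads scaled to library size) per window. T14 IgG had 174 reads and a relative depth of 0.330 (0.283 to 0.384), or 0.578 RPM per window. The B cell IgG libraries had 0.923 in B0, 1.045, 0.851 and 0.990 in the 3 B4 replicates, and 0.804 and 0.849 in the 2 replicates given 10058-F4. The highest T cell IgG value was below the lowest B cell IgG value, with no overlap.

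In the same interval the library titled T4 Myc had a relative depth of 0.472 (0.423 to 0.525) and that titled T14 Myc 0.444 (0.374 to 0.523). The B cell Myc libraries had 0.875 in B0, 0.875 and 0.986 in the 2 B4 replicates and 0.831 with 10058-F4. T cells were thus low whichever antibody the title named, and exchanging the titles of the T14 libraries would not move either value into the B cell range. Pol2 depth in B cells was 0.385 (0.335 to 0.441) in B4 and 0.335 (0.303 to 0.370) with 10058-F4. These B cell libraries were as low as the T cell libraries, so low depth in the alpha interval was shared by T cell libraries of either title and B cell Pol2 libraries. No T cell Pol2 library was analysed here.

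In the beta interval all libraries were below their surroundings, and T cell libraries were lower again. T4 IgG had 95 reads and a relative depth of 0.353 (0.285 to 0.432), or 0.765 RPM per window. T14 IgG had 110 reads and a relative depth of 0.247 (0.203 to 0.299), or 0.496 RPM per window. B cell IgG libraries had 0.525 in B0, 0.588, 0.523 and 0.589 in the 3 B4 replicates, and 0.493 and 0.562 with 10058-F4. T4 Myc and T14 Myc, by title, had 0.321 (0.278 to 0.368) and 0.285 (0.232 to 0.346). B cell Myc libraries had 0.479 in B0, 0.613 and 0.726 in the 2 B4 replicates and 0.628 with 10058-F4. The T cell and the B cell IgG and Myc ranges did not overlap. Pol2 depth was 0.330 (0.268 to 0.403) in B4 and 0.211 (0.177 to 0.249) with 10058-F4. The B4 value lay inside the T cell range and the 10058-F4 value below it. Against the right flank alone both Pol2 libraries, at 0.593 and 0.516, lay above the highest T cell value of 0.421.

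The non-overlap of T cells with B cell IgG and Myc libraries held in both intervals when the flanks were 1 Mb long, or when the left or right flank was used alone. It was narrowest for beta against the left flank, where the highest T cell value was 0.318 and the lowest B cell value 0.347. Read length differs between the T cell libraries and most B cell libraries. The short-read B4 libraries had 0.875 and 1.045 in the alpha and 0.613 and 0.588 in the beta interval, and the part of read length in these values was not tested.

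The T over B ratio in the alpha interval was 0.468 (SD 0.0957, n = 4), from 831 T cell and 903 B cell reads, and single T cell libraries gave 0.344 to 0.575. In the rest of the alpha stretch the ratio was 1.01. In the beta interval it was 0.502 (SD 0.0756, n = 4), from 513 T cell and 480 B cell reads, with 0.412 to 0.587 in single libraries. In the rest of the beta stretch it was 1.04. With reads summed over libraries, the ratio was 0.450 (95% interval 0.409 to 0.496) in the alpha and 0.500 (0.441 to 0.568) in the beta interval. Against the summed short-read B4 reads, each T cell library had a lower ratio in the alpha than in the beta interval: 0.566 against 0.590 in T4 IgG, 0.338 against 0.414 in T14 IgG, 0.484 against 0.536 in T4 Myc and 0.455 against 0.477 in T14 Myc. The B cell side is shared by these 4 pairs, and the order depended on it. Against the 45-base B cell libraries alpha was the higher in T4 IgG (0.705 against 0.696) and T14 Myc (0.567 against 0.563). It stayed the lower in T14 IgG (0.422 against 0.488) and T4 Myc (0.603 against 0.633). Without B4 IgG replicate 1 the mean ratio was 0.514 in alpha and 0.492 in beta. The difference between the intervals was not tested. In both intervals T14 IgG gave the lowest ratio of the 4 libraries and T4 IgG the highest. Each time has 1 library per title, and whether the times differ was not tested.

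**Figure D2:**
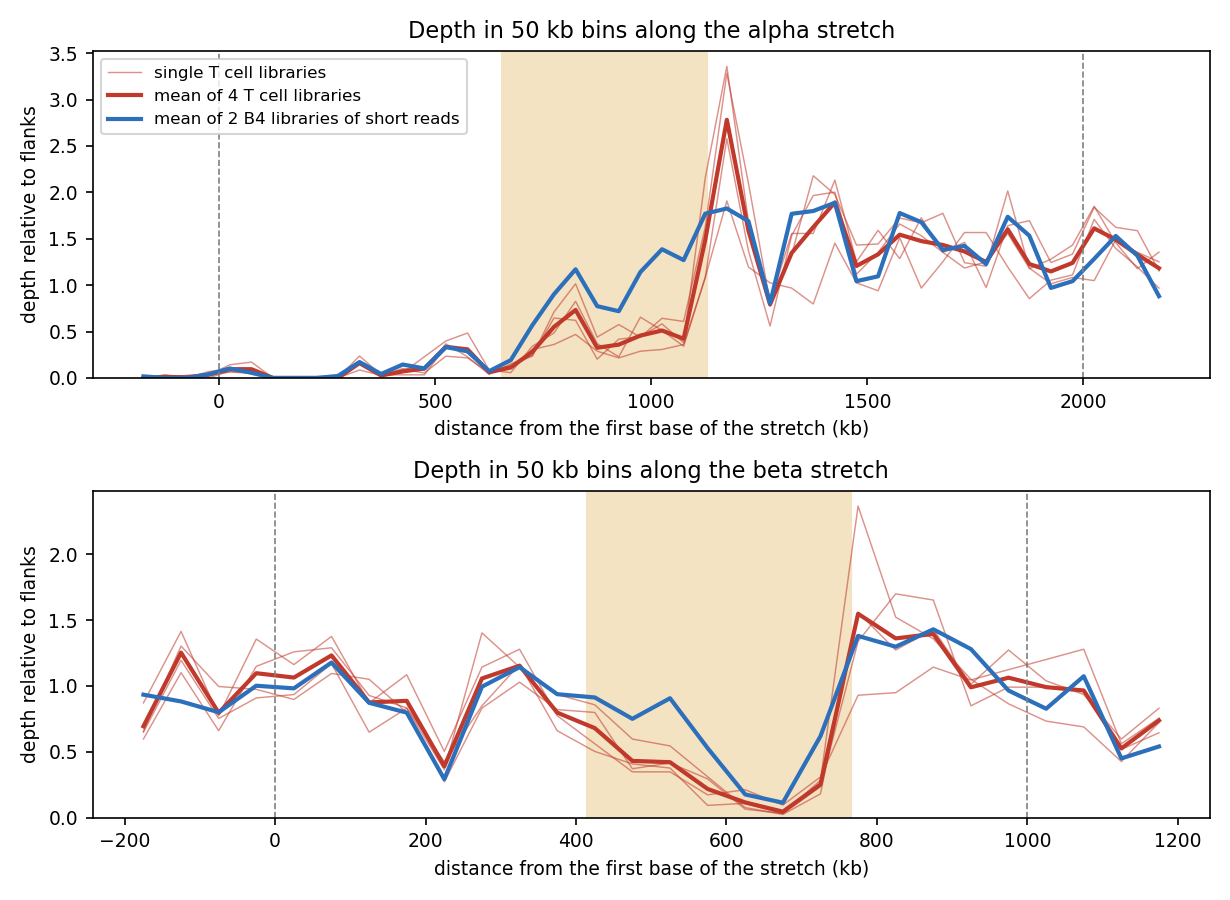
Relative depth in 50 kb bins (y axis) against distance from the first base of each stretch in kb (x axis), with thick lines for the mean of the 4 T cell and of the 2 short-read B4 libraries and thin lines for single T cell libraries; shading marks the interval and dashed lines the ends of the stretch. Inside the shading the T cell line lies below the B cell line, with the lowest ratio in the last whole bin of the alpha interval, and just after the alpha interval it lies above, at 2.78 against 1.83.

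Along the alpha stretch, T cell depth fell below B cell depth unevenly, most of all toward the end of the interval, and returned within 100 kb. Bins of 50 kb had T over B ratios of 0.50, 0.61 and 0.63 from 52.70 to 52.85 Mb. The next bins gave 0.42 and 0.50, and the last 3 whole bins of the interval gave 0.40, 0.37 and 0.33. The lowest bin was chr14:53050001-53100000, with mean relative depths of 0.423 in T cells and 1.27 in the short-read B4 libraries. The bin that holds the end of the interval gave 0.84. The one after it, chr14:53150001-53200000, gave 1.52, the highest of the stretch. From there to the end of the stretch the ratios lay between 0.76 and 1.22. These extremes depended on the B cell libraries. Against the 45-base B cell libraries chr14:53150001-53200000 gave 1.16, and the highest bin was chr14:53250001-53300000 with 1.32. The lowest was then chr14:53000001-53050000 with 0.431.

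The end of the alpha interval was placed alike by each T cell library and the start was not. Scanned one by one, the T cell libraries put the end at 53.10 to 53.14 Mb and the start at 52.52 to 52.725 Mb. Before the interval few reads could be placed in any library: relative depth there was 0.0730 to 0.128 in T cells and 0.0660 to 0.144 in B cells. In the alpha stretch 51 of 400 windows had no read in any of the 16 libraries, among them a run of 100 kb, chr14:52170001-52270000, against 5 of 200 in the beta stretch. Only 178 alpha and 106 beta windows had the 10 short-read B4 reads required for a ratio. T cell depth before the start of the alpha interval was not resolved at this depth.

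Within the alpha interval B cell depth rose toward the end and T cell depth did so less. In the first part (47 windows) mean relative depth was 0.424 in T cells and 0.747 in B cell IgG libraries. In the second part (48 windows) it was 0.475 (SD 0.106, n = 4) in T cells and 1.07 (SD 0.121, n = 6) in B cell IgG libraries. The T over B ratio fell toward the end, although depth rose within each T cell library. It went from 0.391 to 0.552 in T4 Myc and from 0.540 to 0.564 in T4 IgG. By title, it went from 0.442 to 0.445 in T14 Myc and from 0.322 to 0.338 in T14 IgG.

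Along the beta stretch the T over B ratio fell in steps as well. It was 1.00 to 1.11 in the bins with a ratio before 41.05 Mb. It was then 0.85, 0.75, 0.58, 0.47 and 0.41 in successive bins from 41.05 to 41.30 Mb. The following 100 kb had too few B cell reads for a ratio, 19 and 12 reads per bin. The bin chr6:41400001-41450000 had the lowest ratio of the stretch, 0.409, with mean relative depths of 0.253 in T cells and 0.619 in the short-read B4 libraries. The next bin, chr6:41450001-41500000, had the highest, 1.12. Against the 45-base B cell libraries it had 1.47, and the highest bin was chr6:40700001-40750000 with 1.57. Scanned one by one, 3 of 4 T cell libraries ended the beta interval at 41.465 or 41.47 Mb. The library titled T14 Myc ended it at 41.585 Mb. Starts lay between 41.045 and 41.19 Mb.

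The second part of the beta interval (35 windows) had low depth in B cells too, with a mean of 0.353 in B cell IgG libraries against 0.741 in the first part (35 windows). T cells had 0.179 (SD 0.0271, n = 4) and 0.424 (SD 0.100, n = 4). Low depth in the second part was thus seen in both cell types, and T cells were lower than the B cell mean in both parts.

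**Figure D3:**
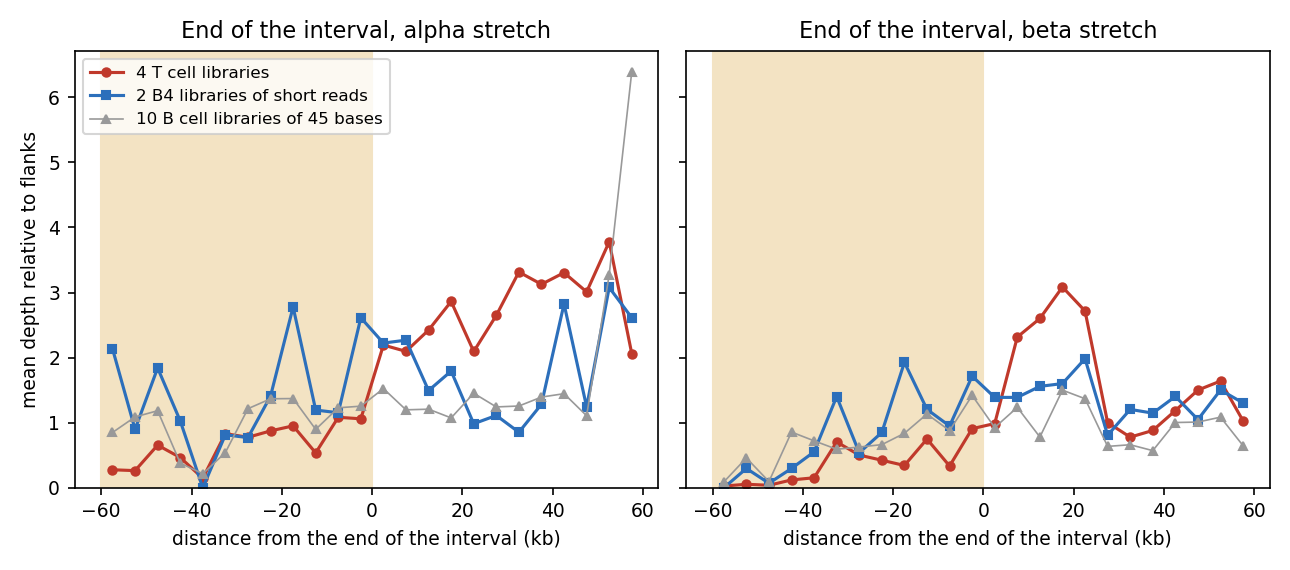
Mean relative depth in 5 kb windows (y axis) against distance from the end of the interval in kb (x axis) for the alpha (left) and beta stretch (right), with lines for the 4 T cell, the 2 short-read B4 and the 10 45-base B cell libraries and shading inside the interval. T cell depth rises at the end of each interval and stays above both B cell lines for most windows of about 50 kb in alpha and of 20 kb in beta.

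Immediately after the alpha interval T cell depth exceeded B cell depth. Over the 50 kb after its end, chosen as a region after the profile was seen, T4 IgG had a relative depth of 3.35 (2.72 to 4.09) and T14 IgG 2.15 (1.78 to 2.57). T4 Myc and T14 Myc, by title, had 3.28 and 2.05. B cell IgG libraries had 1.19 to 1.82 and B cell Myc libraries 1.16 to 1.43. Pol2 had 0.695 in B4 and 0.699 with 10058-F4. All 4 T cell libraries lay above all 12 B cell libraries, and the IgG libraries of T cells were as high as those titled Myc. The end of the interval was set from the same ratio, so the contrast across it is not independent of the scan.

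After the beta interval the rise was narrower and not shared by all T cell libraries. Over the first 50 kb T4 IgG had 1.61 and T14 IgG 1.51, against 0.863 to 1.57 in B cell IgG libraries. T4 Myc had 2.52 and T14 Myc 1.18, and B cell Myc libraries had 0.835 to 1.14. Between 5 and 25 kb after the end, single windows had a mean relative depth of 2.32 to 3.08 in T cells and 1.39 to 1.98 in the short-read B4 libraries. T4 Myc was the highest of the 16 libraries over the 50 kb, and the ranges of T and B cell IgG libraries overlapped.

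The members were also counted against the genome, on the RPM scale, without the flanks. Over chromosomes 1 to 19, 6.77% of 288944 windows with enough B cell reads had a T over B ratio of at most 0.5. In the alpha stretch 53 of 178 such windows did (29.8%), and 38 of these were among the 46 with a ratio in the interval. In the beta stretch 17 of 106 did (16.0%), 14 of them among the 22 with a ratio in the interval. For bins of 50 kb and a ratio of at most 0.75, the share over the genome was 6.28% of 44877 bins. The alpha stretch had 9 low bins of 26 and the beta stretch 4 of 17. The stretches were chosen by T cell depth, so nothing is read from these shares.

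Of the 9 low alpha bins 8 overlapped the interval, out of 9 such bins with a ratio, and 1 lay after it, chr14:53300001-53350000 with 0.722, named after its value was seen. The 4 low beta bins all overlapped the interval, out of 6 with a ratio. The median ratio of the bins that overlap the intervals was 0.463 in alpha and 0.529 in beta, beside 1.02 over all bins of the genome. In the 3 Mb flanks 13 of 97 bins were low around alpha and 5 of 114 around beta. These counts rest on B4 IgG replicate 1, the deeper of the short-read B4 libraries. Without it only 12 alpha and 7 beta bins had enough B cell reads, and 4 and 0 of them were low. Low windows without it numbered 14 of 29 in alpha and 6 of 10 in beta. Without B4 Myc replicate 1, 31 of 77 alpha windows were low. The low share over the genome was not computed without either library, so nothing is read from these counts.

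**Figure D4:**
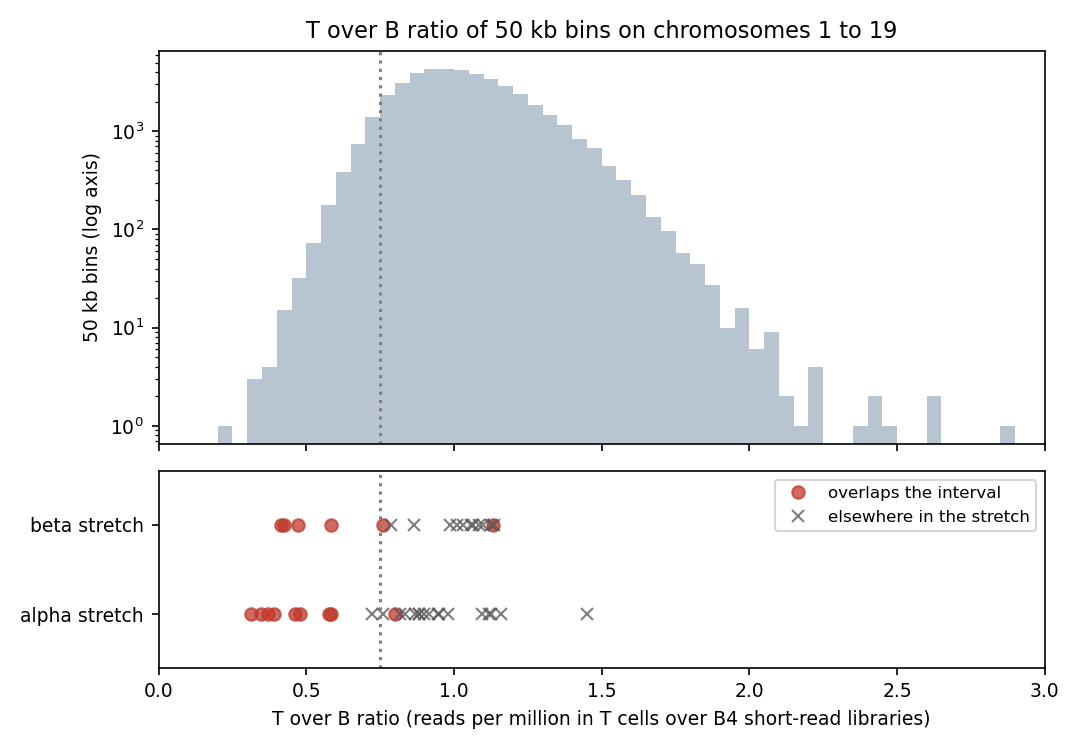
Top, number of 50 kb bins on chromosomes 1 to 19 (log axis) by T over B ratio of RPM (x axis). Bottom, the bins of the alpha and beta stretches on the same x axis, filled where they overlap the interval and crossed elsewhere; the dotted line is the ratio of 0.75. Bins in the intervals reach down to 0.314 in alpha and 0.415 in beta, at the low end of the distribution, and bins elsewhere in the stretches lie mostly between 0.75 and 1.2.

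Of the 10 bins of lowest ratio on chromosomes 1 to 19, 4 were in the alpha interval, and of the 20 lowest, 4 were in alpha and 2 in beta. The 5 lowest were chr15:102200001-102250000 with a ratio of 0.224, chr14:53050001-53100000 and chr15:61800001-61850000 with 0.314 each, chr14:53000001-53050000 with 0.348 and chr14:52950001-53000000 with 0.371. The middle 95% of all bins ran from 0.684 to 1.53. The alpha bins among the 5 lowest had 80 to 100 T cell reads and 111 to 141 B cell reads. The chromosome 15 bins had more on both sides, 304 and 404 T cell reads and 591 and 617 B cell reads. The order of the alpha bins is therefore less certain. A low ratio alone does not tell few T cell reads from many B cell reads.

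**Figure D5:**
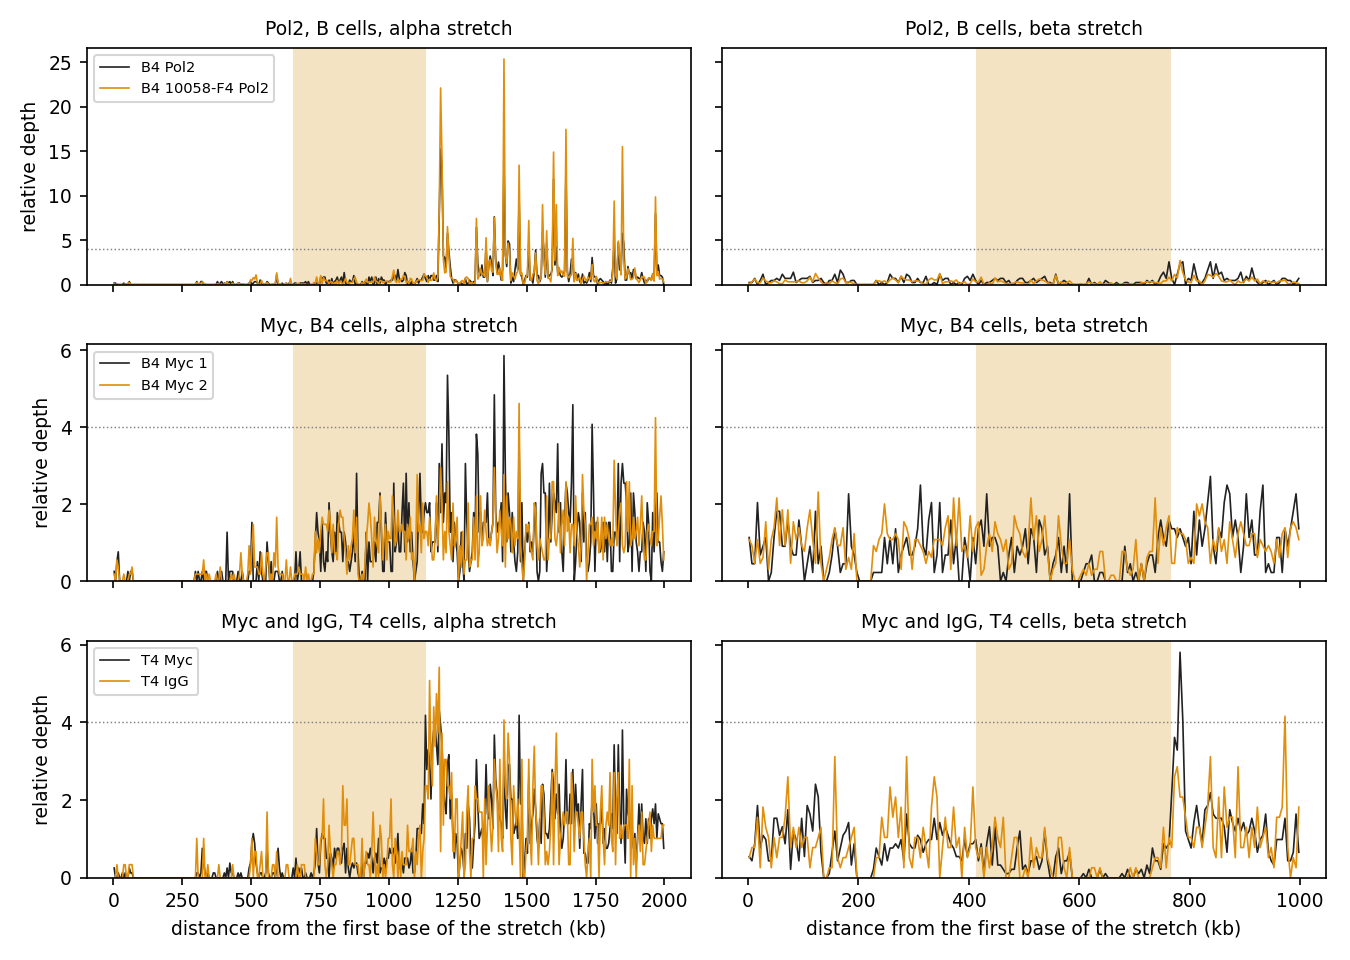
Relative depth in 5 kb windows (y axis, scale set per row) against distance from the first base of each stretch in kb (x axis): Pol2 in B cells, Myc in the 2 B4 replicates, and the T4 libraries titled Myc and IgG. Shading marks the intervals and the dotted line 4 times the flank mean. High Pol2 windows of the alpha stretch all lie after the interval, the beta stretch has none, and T4 IgG rises beside T4 Myc after the alpha interval.

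Pol2 in B cells was high in narrow windows after the alpha interval and nowhere in the beta stretch. A window counted as high at 4 times the flank mean or more. B4 Pol2 had 22 high windows of the 400 in alpha, beside 2.92% of windows over the genome at 4 times their local mean. With 10058-F4 there were 21, beside 3.48%. The local mean moves with the window, so the genome shares here and below follow another rule. By the rule of the stretch, the 3 Mb flanks of alpha held 58 and 62 high windows. Flanks span 3 Mb on each side, while the alpha stretch spans 2 Mb and the beta stretch 1 Mb. Counts in stretch and flanks, here and below, are therefore not on the same scale. High windows in alpha are not read as a feature of the stretch. In the alpha stretch 20 windows were high in both libraries, and all lay after the interval. Before the interval few reads could be placed in any library, so high windows could hardly be seen there, for Pol2 or for Myc. In the beta stretch 0 of 200 windows were high in either, with maxima of 2.57 and 2.72, beside 38 and 41 high windows in its flanks. With 1 Pol2 library per treatment there was no replicate, and the effect of 10058-F4 was not tested.

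The highest Pol2 window of the alpha stretch was chr14:53415001-53420000, with 13.9 in B4 and 25.4 with 10058-F4, and IgG values of 1.18 in B4 IgG replicate 2 and 1.22 in the first IgG replicate with 10058-F4. The next was chr14:53185001-53190000, 55 kb after the end of the interval, with 15.3 and 22.1 and IgG values of 5.13 and 4.16 in the same libraries. The third was chr14:53640001-53645000, with 13.1 and 17.5, and IgG values of 1.18 and 2.20 in those libraries. At the second window these IgG libraries were thus also above their flanks, with 13 and 17 reads. At the first they held 3 and 5 reads and at the third 3 and 9, so their values there are uncertain. Over the whole stretch after the alpha interval the 6 B cell IgG libraries had a mean relative depth of 1.495. In beta the 3 windows of highest Pol2 were chr6:41480001-41485000 (2.33 and 2.72), chr6:41485001-41490000 (2.57 and 1.36) and chr6:41535001-41540000 (2.57 and 1.05), all after the interval. They held 10 to 26 reads per Pol2 library. IgG values in the same libraries as above were 1.63 and 0.986, 1.22 and 0.740, and 2.85 and 2.47. At the third window the IgG values were above the Pol2 values, from 7 and 10 IgG reads.

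Myc in B cells was high in few alpha windows, again after the interval. B4 Myc replicate 1 had 5 high windows in alpha, beside 0.583% of windows over the genome. B4 Myc replicate 2 had 2, beside 0.136%, and Myc with 10058-F4 had 2, beside 0.126%. B0 Myc had 0, beside 0.183%. In the alpha flanks these libraries had 19, 6, 4 and 1 high windows, in the order given. No B cell Myc library had a high window in beta. The windows of highest Myc over IgG in B cells, with 0.5 added to both, were chr14:53210001-53215000 (1.90), chr14:53245001-53250000 (1.77) and chr14:53315001-53320000 (1.69). At the first of them Myc had 5.35 and 2.59 in the 2 B4 replicates and 3.85 with 10058-F4, B0 Myc had 1.13, and Pol2 had 5.76 and 6.52. IgG of B cells at the first was 0.489 to 1.99. At the second, Pol2 was 0.339 and 0.311, below its flanks. B cell Myc libraries held 3 to 16 reads at the second window and B cell IgG libraries 1 to 7. In beta these windows were chr6:41130001-41135000 (1.72), chr6:41280001-41285000 (1.70) and chr6:41675001-41680000 (1.70), and the replicates of B4 Myc differed, for example 2.27 against 0.927 at the first. The beta windows held 1 to 10 reads per B cell Myc library and 0 to 6 per B cell IgG library. At the first, B0 Myc (0.140) was below B0 IgG (0.502). Myc with 10058-F4 (0.158) was below both of its IgG replicates there (0.247 and 0.387).

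In T cells, high windows occurred in the library titled T4 IgG as well as in that titled T4 Myc. T4 Myc had 3 high windows in alpha and 2 in beta, beside 0.209% over the genome, and T4 IgG had 5 and 1, beside 0.220%. In the flanks of alpha and beta T4 Myc had 7 and 1 high windows, and T4 IgG 8 and 0. T14 Myc had 0 in both, beside 0.124%, and T14 IgG had 1 and 0, beside 0.244%, by title. Among B cell IgG libraries, B4 IgG replicate 2, the library of fewest reads, had 14 and 1, beside 1.19%, with 21 and 19 in the flanks. The first IgG replicate with 10058-F4 had 3 and 0, beside 0.506%, and B4 IgG replicate 1 had 1 and 0, beside 0.132%. The other B cell IgG libraries had 0 in both, beside 0.160% in B0, 0.0532% in B4 IgG replicate 3 and 0.0735% in the second replicate with 10058-F4. The 2 high beta windows of T4 Myc were chr6:41480001-41485000 and chr6:41485001-41490000. Both were among the 3 beta windows of highest Pol2 in B cells, where no beta window was high in Pol2. There T4 Myc had 5.80 and 4.05, T4 IgG 2.08 and 2.08, T14 Myc 1.94 and 1.74, and T14 IgG 2.52 and 2.99. T4 Myc was above T4 IgG at both windows, and T14 Myc was below T14 IgG by title.

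The windows of highest Myc over IgG in T cells held few reads. In alpha they were chr14:53475001-53480000 (2.76), chr14:52505001-52510000 (2.40) and chr14:53760001-53765000 (2.38). T4 IgG was at 0 reads in all of these, so their ranks rest on an empty control window. In beta they were chr6:41605001-41610000 (2.27), chr6:41190001-41195000 (1.83) and chr6:41135001-41140000 (1.78), with T4 IgG at 0.520, 0 and 0.260. No window in either interval was high in any of the 16 libraries. High windows made up 0.0532% to 3.48% of the genome by the local mean. The intervals were chosen for a low T over B ratio, so nothing is read from their lack of high windows.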

How the data were processed

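The authors deposited 1 list of aligned reads per library, with 1 line per read giving chromosome, first and last position, read length in bases and strand. The lists hold no column of counts or scaled values. The submitters' processing notes name the tools CASAVA 1.0 and Bowtie 0.12.7 and the build mm8. Alignment settings and whether positions start at 0 or 1 are not given in the sources used here, so coordinates may be off by 1 base.

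Reads that share strand and 5′ end were counted once. This took away 5.26% of the reads of B4 Myc replicate 1, and 0.0796% or less in the other libraries. Reads were placed by their midpoint in windows of 5 kb and scaled to reads on chromosomes 1 to 19 (RPM). A ratio needed at least 10 reads per window, or 50 per bin of 50 kb, summed over the short-read B4 libraries. The interval scan maximised a Poisson likelihood and was tested on simulated data. Named windows were the 3 highest per stretch for Pol2, for Myc over IgG in B cells and in T cells, among windows with at least 20 reads over all libraries, plus the lowest and highest bins per stretch and the 5 lowest of the genome. Samples were grouped by title. The stretches, lists and rules were chosen with earlier results of these data known. Python 3.11.15, NumPy 2.4.6, pandas 2.3.3 and SciPy 1.17.1 were used. Alternatives covered flanks, read placement, repeated reads, the B and T cell libraries used, bin width and thresholds.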

Additional observations from a re-analysis of the deposited data

How the results depend on the processing

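Precision was limited by 480 to 903 reads per side in the intervals, by 45-base against short reads, and by 1 library in most groups. The ratio in both intervals stayed below 1 under the listed alternatives. Over single B cell libraries it reached 1.34 in alpha and 1.43 in beta, both over Pol2 with 10058-F4. With 45-base B cell libraries it was 0.574 in alpha and 0.595 in beta, and with T4 IgG over B4 IgG replicate 1 (added after seeing the data) 0.599 in beta. Leaving out 1 library gave 0.430 to 0.514 and 0.473 to 0.532. Over the whole beta stretch the ratio went above 1 with 45-base libraries (1.13), all B cell libraries (1.09), B cell IgG libraries (1.02) and 45-base libraries without Pol2 (1.03, added after seeing the data). It was 0.863 with B4 IgG replicate 1 alone, 0.880 without high windows, 0.881 with 1 Mb flanks, 0.968 and 0.849 with the left and right flank, and 0.863 to 0.963 leaving out 1 library.

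The alpha interval started at 52.75 Mb and ended at 53.085 Mb with 45-base B cell libraries, and ran from 52.56 to 53.085 Mb with these without Pol2 (added after seeing the data). With T4 alone it started at 52.52 Mb, and leaving out 1 library gave 52.515 to 52.77 Mb. Low 5 kb windows covered 265 kb in alpha (53 of 178 with a ratio, 29.8%) and 450 kb with 45-base libraries (90 of 297, 30.3%). Leaving out 1 library gave 70.0 to 310.0 kb. In beta they covered 85 kb (17 of 106, 16.0%) and 135 kb with 45-base libraries (27 of 182, 14.8%). There, leaving out 1 library gave 30.0 to 120.0 kb. Low bins covered 450 kb in alpha (9 of 26 with a ratio) and 1100 kb with 45-base libraries (22 of 34). Leaving out 1 library gave 200.0 to 500.0 kb. In beta they covered 200.0 kb (4 of 17) and 250 kb with 45-base libraries (5 of 20). There, leaving out 1 library gave 0 to 250.0 kb. More windows and bins had a ratio with 45-base libraries, and fewer without B4 IgG replicate 1. The low share over the genome was not computed with 45-base libraries or with 1 library left out. At 6 times the flank mean, windows high in both Pol2 libraries numbered 10 in alpha in place of 20. Windows high in any Myc library of B cells numbered 9 in alpha at 4 times, 30 at 3 times and 0 at 6 times, and 1 in beta at 3 times. For T cell libraries titled Myc they numbered 20 and 0 in alpha and 4 and 0 in beta, at 3 and 6 times. Genome shares and flank counts were not computed at 3 or 6 times. They were also not computed for windows high in both or in any of several libraries, so nothing is read from these numbers of high windows. The cause was not tested. Of 64 relative depths, none moved by more than its counting interval with 5′ ends or all reads, 18 did with 1 Mb flanks and 59 with either flank alone. No paired analysis was made. No result here comes from a test, and the labels do not say which libraries came from separate animals.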
